A study of Mus musculus with 4 samples.

Results

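The comparison set the retina of mice with an induced cell-killing toxin against the retina of control mice at day 1 after injury, 1 whole-retina RNA-seq library on each side. Its genes were all those held by the file of the injured library, 5799 of the 22558 gene symbols of the series. They lie on chromosomes 1, 10, 11, 12 and 13 and on the first part of chromosome 14, so they were set by position and not by any measured value. The mice were about 8 weeks old, of mixed C57BL/6 and 129 background, and every mouse of the series carried 1 copy of R26R-DTA, the allele that makes diphtheria toxin fragment A once Cre has acted. The injured mice also carried 1 copy of Msi1-CreERT2, and the controls carried no Cre. The controls therefore hold the silent toxin allele but not the recombinase. Neither the number of mice behind a library nor the dose of the inducing ligand is stated in the labels. The control library of day 1 is called the matched control below. A second library of the control genotype, taken at day 5 and called the later control, served to show how far 2 control retinas differ. The injured library of day 1 is called DTA, and that of day 5, quoted only for context, late DTA.

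Diphtheria toxin fragment A modifies elongation factor 2 and stops protein synthesis, and a cell that makes it dies. CreERT2 is a Cre recombinase fused to a ligand-binding part of the estrogen receptor, and here it was placed under control of Msi1, the gene of the RNA-binding protein Musashi 1. In a damaged retina, Müller glia and the resident microglia are known to respond to dying neurons with cytokines of the interleukin-6 family, interferon-linked genes, chemokines and the intermediate filament GFAP. Msi1 itself lies outside the chromosomes compared, and no reads of Cre or of the toxin transcript were analysed here, so the recombination was not checked in these values. Levels are given in FPKM, the fragments of a gene divided by its transcript length in kilobases and by the size of the library. In a whole retina, fewer cells of a type and less RNA per cell cannot be told apart.

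With 1 library per group there is no spread between replicates, no standard deviation and no p-value, and every difference compares these libraries only. Differences are DTA minus control on the scale log2(FPKM + 1), which understates changes of low genes, and folds, printed where neither value was under 1 FPKM, are plain ratios. A gene was called higher or lower where 3 conditions held. Its difference was 1 or more in size, and its level was 5 FPKM or more on either side. Its difference also exceeded in size the one that the gene shows between the 2 controls. This last condition puts DTA on the same side of both controls for every called gene, so that side is no separate finding. Estimated depths, in M fragments (M for mega), were 74.1 M for the matched control, 97.7 M for DTA, 35.5 M for the later control and 29.5 M for late DTA. The authors' intervals had median half-widths of 4.41%, 3.74%, 6.21% and 6.68% of the FPKM in that order, and they cover assignment and counting of fragments within a library, not differences between mice.

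The day 1 libraries were close over most genes. Of the 5785 genes with an estimate in both, 2623 reached 5 FPKM in one of them. Among these, 54 were called higher in DTA (2.06%) and 16 lower (0.610%). Genes of small RNAs made up 20 of the higher and 7 of the lower, and 13 of the 20 were listed at 0 in both controls. They are short, and such values can rest on few fragments, so they are left out below. That leaves 2527 genes, of which 34 were higher (1.35%) and 9 lower (0.356%). The median difference of the 2527 was 0.05, 59.9% of them lay above 0 and 93.3% within 0.5 of 0.

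The 2 controls differed from each other mostly in one direction. Of 2475 genes at the floor and without small RNA genes, 3 were higher in the later control (0.121%) and 30 lower (1.21%), with a median of -0.08. The higher calls and the lower calls at day 1 related to this background in different ways. When the difference had to reach 1 against both controls, 31 genes stayed higher (1.23%) and 1 stayed lower (0.0396%), which put the share of higher calls at 96.9% in place of 79.1%. With the later control as the only reference there were 65 higher and 2 lower (97.0%). The 65 include genes of lens and red blood cells that stood well below DTA in the later control. Examples are the gamma crystallin Cryge, at 3.02 FPKM in the later control and 292 in DTA, and Hba-a2, at 0.0132 and 6.65. Others were not near 0 in the later control, such as Crygb, at 19.5 and 520, and Hba-a1, at 23.6 and 58.5. Hba-a1 and Hba-a2 have nearly the same listed position, so the split of fragments between them is uncertain. With small RNA genes kept, the shares were 77.1% against the matched control, 89.5% against the later control and 90.0% against both. Against the later control the smallest difference among the 34 higher genes was 0.87, and in 26 of the 34 the controls lay within 0.5 of each other. Over the 2527 genes the 1st and 99th percentiles of the gap between the controls were -1.18 and 0.44. The share of the 2527 with controls that close was not counted, so the 26 mark no trait of the higher genes. Of the 34 higher genes, 33 had an estimate in late DTA, and all 33 stood above the later control there. The call rule already puts the later control below DTA for these genes, so this count is no independent check. The share over all genes was not counted.

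**Figure D1:**
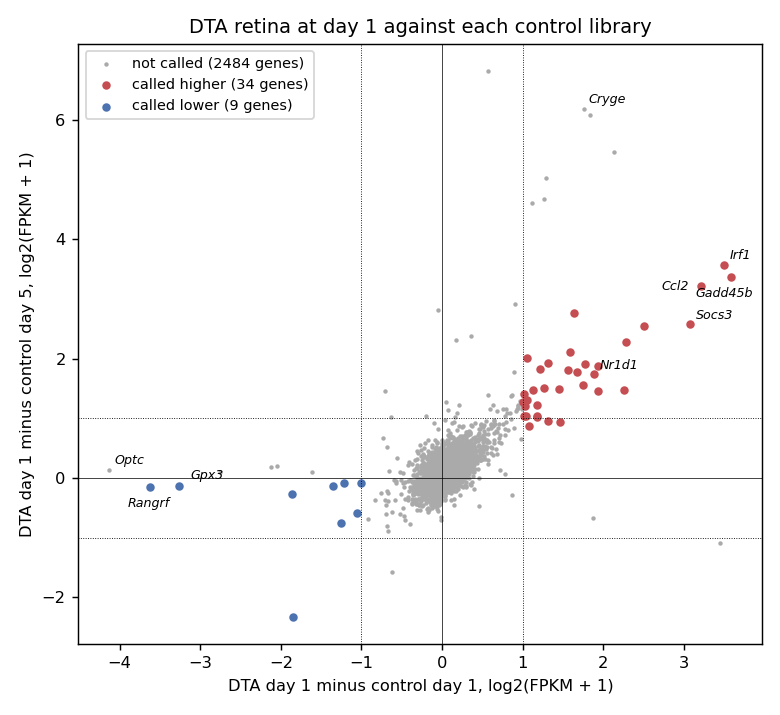
Each point is 1 of the 2527 genes at 5 FPKM or more without small RNA genes; the horizontal axis is DTA day 1 minus control day 1 and the vertical axis DTA day 1 minus control day 5, both on log2(FPKM + 1), with dotted lines at differences of 1. The 34 genes called higher (red) lie high on both axes, while most of the 9 called lower (blue) lie near 0 on the vertical axis.

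Growth arrest genes held the largest difference among the higher calls. Gadd45b, a stress-induced protein that acts on MAP kinase signalling and DNA demethylation (chromosome 10, 80392836 to 80394949), stood at 3.56 FPKM in the matched control, 4.32 in the later control and 54.0 in DTA, a difference of 3.59. Its relative Gadd45g (chromosome 13, 51942044 to 51943843) stood at 9.73, 6.48 and 31.2 FPKM in the same order, a difference of 1.59. The DTA library was above both controls for each, which the call rule requires. These were the 2 called members among 23 measured genes of growth arrest, p53 and cell death, a list with a median of 0.07. Over all 5785 measured genes the median was 0.0039, and each list median below is to be read beside that. For lists whose members mostly reached the floor, the median of 0.05 of the 2527 genes at the floor is the nearer value. Trp53 itself, the p53 gene, stood at 5.67 FPKM in the matched control and 9.40 in DTA (0.64), the p53 target Phlda3 at 3.88 and 7.27 (0.76), and Ripk1, a kinase of the death receptor pathway, at 1.55 and 3.39 (0.78). The p53 targets Ccng1, at 26.4 and 26.6 FPKM, and Sesn1, at 27.9 and 21.6, did not share this shift.

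JAK and STAT signalling transmits cytokine signals from the cell surface to the nucleus, and SOCS proteins are its induced inhibitors. Socs3 (chromosome 11, 117827401 to 117830680) stood at 0.941 FPKM in the matched control, 1.75 in the later control and 15.4 in DTA, a difference of 3.08. It was the 1 called gene among 17 measured (median 0.09). Socs2 stood at 2.74 FPKM in the matched control and 6.22 in DTA (0.95), just short of the size of 1. The ligand Lif, leukemia inhibitory factor, stood at 0.206 FPKM in the matched control and 1.93 in DTA, a difference of 1.28 below the floor. Its receptor subunit Il6st, also called gp130, stood at 16.6 and 22.7 (0.43). Among STAT genes, Stat2 differed by 0.47, Stat5a by 0.15, Stat5b by 0.01 and Stat6 by -0.03, and Stat3 had no estimate in DTA. Sbno2, a corepressor of the interleukin-10 and STAT3 response that stands in none of the lists, was at 3.90 and 8.67 FPKM (0.98).

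Interferon-linked genes were above control in number more than in size. Irf1, the transcription factor that switches on many interferon-stimulated genes (chromosome 11, 53583516 to 53591876), stood at 1.52 FPKM in the matched control, 1.40 in the later control and 27.5 in DTA, an 18.2-fold ratio. Rsad2, the antiviral enzyme viperin (chromosome 12, 27127608 to 27141317), stood at 0.258, 0.256 and 5.12 FPKM, a difference of 2.28. Its value lies just above the floor, and the call ended after either scaling, which put it under 5 FPKM, and with a pseudocount of 5 (0.94). These 2 were the called genes among 32 measured interferon-stimulated genes, of which only 8 reached the floor. Of the 32, 30 lay above 0 and 2 below (28 and 4 against the later control), with a median of 0.17. Many of the 32 had very low values, such as Ifi205 at 0.0022 FPKM in the matched control and 0.0043 in DTA. Over all 5785 measured genes 51.6% lay above 0, and each such count below is to be read beside that. For lists whose members mostly reached the floor, the nearer value is the 59.9% of the 2527 genes at the floor. Cmpk2, the neighbour of Rsad2 on chromosome 12, was at 4.35 and 7.81 FPKM (0.72). Lgals3bp, a secreted scavenger receptor protein, was at 6.87 and 11.4 (0.66), and the nucleic acid sensor Dhx58 at 0.468 and 0.828 (0.32).

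The interferon-inducible GTPases, which attack the vacuoles of intracellular pathogens, gave a like picture from low levels. Irgm1 (chromosome 11, 48678751 to 48684848) stood at 1.57 FPKM in the matched control, 1.33 in the later control and 7.80 in DTA, a 4.98-fold ratio. Igtp (chromosome 11, 58013058 to 58021094) stood at 1.94, 1.85 and 5.65 FPKM, a 2.92-fold ratio, and Irgm2 at 0.875, 0.623 and 4.22, a difference of 1.48 below the floor. All 9 measured members lay above 0, or 8 against the later control, with a median of 0.45. Only the 2 called, Irgm1 and Igtp, reached the floor. The members are related in sequence, so the split of fragments among them is uncertain. The calls of Irgm1 (0.96) and Igtp (0.62) ended with a pseudocount of 5.

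Chemokines attract leukocytes. Ccl2, which draws monocytes (chromosome 11, 81849079 to 81850954), had no signal listed in either control (0 FPKM) and reached 8.32 in DTA. Ccl5, which draws T cells and monocytes (chromosome 11, 83339281 to 83344020), stood at 0.111 FPKM in the matched control, 0.0777 in the later control and 5.32 in DTA, a difference of 2.51. Ccl12 followed at 0.109, 0 and 2.45 FPKM, and Ccl7 was listed at 0 in each control and reached 1.05 in DTA. Ccl2, Ccl7 and Ccl12 are related genes of one cluster, and some fragments may be shared among them. Ccl4 lay the same way at a lower level, at 0.0266 FPKM in the matched control, 0 in the later control and 0.577 in DTA, as did Ccl3, listed at 0 in each control and at 0.434 FPKM in DTA. Over the 20 measured members of the list, those named included, 10 lay above 0 and 8 below, the median was 0.01, and only 3 reached the floor of 5 FPKM. Cxcl14, the most abundant member, was at 24.9 and 23.4 FPKM. At a floor of 10 FPKM the calls of Ccl2 and Ccl5 ended, as did those of Irgm1, Igtp, Rsad2, Atf3 and Hist1h4h. The levels were higher again in late DTA, with Ccl2 at 29.1 FPKM and Ccl5 at 18.4.

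Of 25 measured cytokines and cytokine receptors 17 lay above 0 and 6 below, with a median of 0.02. Only 3 of the 25 reached the floor and could be called, and none was. The largest differences among those at 1 FPKM or more were Tgfb3 (0.34) and the interleukin-1 receptor Il1r1 (0.31). Among 14 regulators of NF-kappa B, the transcription factor of inflammatory signals, 1 was called and the median was 0.16. Map3k14, the kinase NIK that starts the noncanonical pathway (chromosome 11, 103081078 to 103128715), stood at 4.69 FPKM in the matched control, 4.33 in the later control and 17.2 in DTA, a 3.67-fold ratio. The inhibitor Nfkbia was at 14.3 and 21.6 FPKM (0.57), the subunit Rel at 1.03 and 1.71 (0.42), and the feedback inhibitor Tnfaip3 at 77.9 and 78.1.

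**Figure D2:**
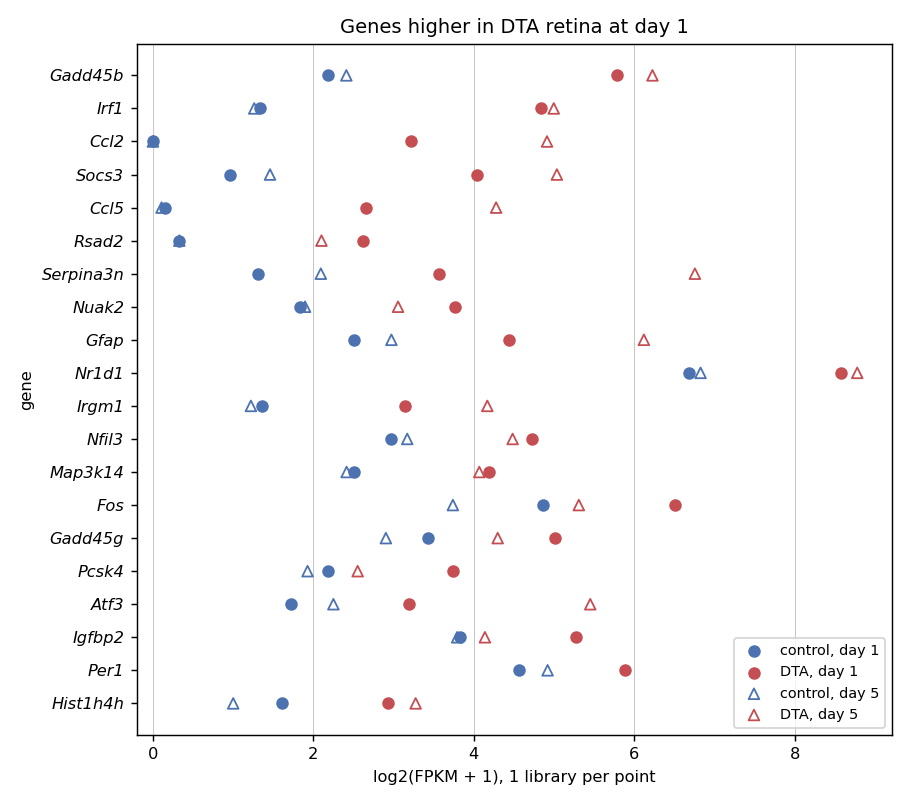
The 20 called genes with proper names and the largest positive difference at day 1, small RNA genes left out, with log2(FPKM + 1) on the horizontal axis and 1 point per library (circles for day 1, triangles for day 5; blue for control, red for DTA). For each gene drawn the DTA point lies to the right of both control points, which the call rule requires. Per1 had no estimate in late DTA.

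Reactive gliosis genes mark activated astrocytes and Müller glia. Gfap (chromosome 11, 102748650 to 102758514) stood at 4.66 FPKM in the matched control, 6.85 in the later control and 20.7 in DTA, a 4.43-fold ratio to its own control. Serpina3n, an acute phase protease inhibitor that reactive astrocytes secrete (chromosome 12, 105644918 to 105652539), was at 1.47, 3.27 and 10.8 FPKM, a difference of 2.26. S1pr3, a receptor for sphingosine 1-phosphate (chromosome 13, 51503987 to 51518166), stood at 6.48, 5.60 and 14.2 FPKM, a difference of 1.03 that dropped under the size of 1 after scaling by the median ratio (0.98) and with a pseudocount of 5 (0.75). Together with Socs3, which this list shares, 4 of 16 measured genes were called and 14 lay above 0, with a median of 0.25. Of the 16, only 5 reached the floor. Chi3l1, a chitinase-like protein of reactive astrocytes, was at 7.67 FPKM in the matched control and 7.43 in DTA at day 1, and at 5.77 and 34.6 at day 5. Serpina3n and Gfap were higher again in late DTA, at 107 and 68.5 FPKM.

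To show which letters stand before some of the higher genes, stretches of 7 promoters are printed here, 5′ to 3′ on the strand of the gene. They come from RefSeq promoters (mouse build GRCm38.p6), and the positions are those of their single exact match in mm9, the build of the files. Capitals mark a match to a searched motif on either strand. Searched were a STAT site TTCNNNGAA, an NF-kappa B site GGNNTTTCC, an interferon response element GAAANNGAA, an E-box CACGTG, which clock proteins among others bind, and a cyclic AMP response element TGACGTCA. The windows lie at chr11:53583386-53583474 for Irf1 (plus strand, STAT), chr11:117830786-117830874 for Socs3 (minus strand, STAT), chr11:58012973-58013057 for Igtp (plus strand, STAT and then interferon response element), chr12:27141344-27141476 for Rsad2 (minus strand, interferon response element in reverse complement and then NF-kappa B), chr12:105644708-105644796 for Serpina3n (plus strand, NF-kappa B), chr10:80392611-80392696 for Gadd45b (plus strand, E-box) and chr11:68912245-68912330 for Per1 (plus strand, E-box). None overlaps an annotated exon.
Irf1: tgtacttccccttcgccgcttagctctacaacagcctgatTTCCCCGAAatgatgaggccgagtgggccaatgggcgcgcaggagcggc
Socs3: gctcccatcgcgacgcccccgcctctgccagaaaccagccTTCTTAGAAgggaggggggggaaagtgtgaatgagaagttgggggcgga
Igtp: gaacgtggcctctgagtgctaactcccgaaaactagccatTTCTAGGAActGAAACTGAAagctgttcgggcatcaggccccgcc
Rsad2: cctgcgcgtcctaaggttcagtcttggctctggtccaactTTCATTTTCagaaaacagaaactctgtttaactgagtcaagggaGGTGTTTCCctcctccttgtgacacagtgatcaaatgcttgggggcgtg
Serpina3n: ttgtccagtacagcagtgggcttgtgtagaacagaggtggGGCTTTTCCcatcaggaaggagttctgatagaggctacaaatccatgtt
Gadd45b: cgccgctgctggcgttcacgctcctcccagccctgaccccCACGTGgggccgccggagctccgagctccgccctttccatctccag
Per1: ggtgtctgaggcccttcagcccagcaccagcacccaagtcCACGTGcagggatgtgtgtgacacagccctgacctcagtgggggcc

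Of the 34 higher genes 26 had a promoter in the table, and the 250 bases before the start were searched. The STAT letters stood before 7 of the 26 (26.9%), among them Irf1, Socs3, Igtp, Per1 and Nop58, against 8.13% of all 27025 genes of the table. The E-box letters stood before 5 (19.2%; 6.86% of all genes), namely Gadd45b, Gadd45g, Igfbp2, Per1 and Gzmm. The interferon response element letters stood before 4 (15.4%; 8.18%), namely Rsad2, Nr1d1, Irgm1 and Igtp. The NF-kappa B letters stood before 3 (11.5%; 5.62%), namely Rsad2, Serpina3n and Nop58, and the cyclic AMP letters before 1, Hist1h4h (3.85%; 1.77%). A match is a string of letters and not a bound site, the counts are small, and no match says nothing about the factor. Of the 9 lower genes 7 had a promoter. NF-kappa B letters stood before 3 of the 7 (42.9%; 5.62% of all genes), namely Col9a1, Fam107a and Rangrf. STAT letters stood before 1, Rangrf (14.3%; 8.13%), and interferon response element letters before 1, Hfe (14.3%; 8.18%). E-box and cyclic AMP letters stood before 0 of the 7. Ccl2, Ccl5, Nuak2, Pcsk4, Ppp1r1b, Sox9, Cd24a and Ikzf4 had no promoter in the table.

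Clock genes were above control almost throughout. Nr1d1, the repressor REV-ERB alpha (chromosome 11, 98629249 to 98636556), stood at 102 FPKM in the matched control, 112 in the later control and 379 in DTA, a 3.74-fold ratio, and in level it was the most abundant of the 34 higher genes. Nfil3, a repressor of D-box genes that is also induced by cytokines (chromosome 13, 53062578 to 53076408), stood at 6.83, 8.00 and 25.4 FPKM, a 3.72-fold ratio. Per1, a core clock inhibitor (chromosome 11, 68912458 to 68923459), stood at 22.6, 29.3 and 58.0 FPKM, a difference of 1.32, but 0.96 against the later control. Of 11 measured clock genes 3 were called, and all 11 lay above 0, or 10 after either scaling and against the later control, where Csnk1d fell on the other side. The median was 0.66, and 0.74 against the later control. Cry1 was at 16.9 and 33.5 FPKM (0.95), Per2 at 6.16 and 10.4 (0.66), and Nr1d2, the second REV-ERB, at 48.7 and 62.9 (0.36). Csnk1d, a clock kinase, was at 31.0 and 32.1. Transcripts of most of these genes cycle over the day, and the hour of dissection is not stated in the labels. In late DTA, Nr1d1 stood at 438 FPKM and Cry1 at 38.4, again above the controls.

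Immediate early genes are switched on within minutes of a stimulus. Fos, a subunit of the transcription factor AP-1 (chromosome 12, 86814851 to 86818219), stood at 28.1 FPKM in the matched control, 12.4 in the later control and 89.6 in DTA, a 3.19-fold ratio. For Fos the later control minus the matched one was -1.12, the largest such gap of the 20 genes drawn. Atf3, a stress-induced member of the same family (chromosome 1, 192994176 to 193007212), stood at 2.30, 3.76 and 8.16 FPKM, a difference of 1.47, but 0.95 against the later control and 0.85 with a pseudocount of 5. With Nfil3, 3 of 28 measured genes were called, 21 lay above 0 (17 after either scaling) and the median was 0.10. Egr2, a zinc finger factor, stood at 0.0617, 0.0277 and 4.23 FPKM, a difference of 2.30 below the floor. Klf6 was at 5.53 and 10.2 FPKM (0.78), while the MAP kinase phosphatase Dusp6, at 7.67 and 7.83, and Btg2, at 27.5 and 27.7, were near control.

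Stress responses of the endoplasmic reticulum were mostly near control. Nuak2, a kinase related to AMPK (chromosome 1, 134212702 to 134230065), stood at 2.55 FPKM in the matched control, 2.72 in the later control and 12.6 in DTA, a 4.94-fold ratio. It and Atf3 were the 2 called of 19 measured genes of the unfolded protein and integrated stress response, with 11 above 0, 8 below and a median of 0.06. Stc2, a secreted glycoprotein induced by this response, was at 1.25 and 3.56 FPKM (1.02, below the floor). Ddit3, the death-linked factor CHOP, was at 40.9 and 53.2 (0.37), Xbp1, a factor of the unfolded protein response, differed by -0.10, and the chaperone Hsp90b1 was at 127 and 117. Ddit4, a stress-induced inhibitor of mTOR, lay the other way, at 64.3 and 39.6 FPKM (-0.69). Eef2, the target of the toxin, was at 304 FPKM in the matched control and 279.8 in DTA, and Dph1, which helps build the residue that the toxin modifies, at 6.10 and 6.00. None of the 5 genes of the toxin pathway was called (median -0.02).

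Several higher genes stand outside these groups. Igfbp2, which binds insulin-like growth factors (chromosome 1, 72871077 to 72899045), stood at 13.2 FPKM in the matched control, 12.9 in the later control and 37.8 in DTA, a 2.86-fold ratio, and at 16.6 in late DTA. It was the 1 called of 18 growth factor and morphogen genes (median -0.02), where Egfr was at 1.94 and 3.02 FPKM (0.45) and Igfbp4 at 18.4 and 9.86 (-0.84). Nop58, a core protein of the particles that methylate ribosomal RNA (chromosome 1, 59741850 to 59768354), stood at 12.9, 10.8 and 32.3 FPKM. Gnl3, the nucleolar protein nucleostemin, was near it in role and direction, at 6.03, 4.98 and 12.4 (0.93). Ppp1r1b, the phosphatase inhibitor DARPP-32 of dopamine signalling (chromosome 11, 98210052 to 98219109), stood at 7.65, 4.66 and 19.1 FPKM. Pcsk4, a proprotein convertase best known from germ cells (chromosome 10, 79784028 to 79792218), stood at 3.52, 2.80 and 12.3 FPKM. In late DTA Ppp1r1b was at 5.18 FPKM and Pcsk4 at 4.87. The remaining called genes outside the lists, with differences of 1.00 to 1.08, were the granzyme Gzmm, the surface protein Cd24a, the adhesion scaffold Nedd9, the zinc finger factor Ikzf4 and the Wnt receptor Fzd7, together with the unnamed gene models 1700027L20Rik (1.18) and 2010107H07Rik (1.02). Gzmm was the 1 whose difference from the later control, 0.87, was the smallest of all 34.

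Histone H4 genes of the large cluster on chromosome 13 lay above control as a block. Hist1h4h, Hist1h4k and Hist1h4j were called, at 1.32, 1.18 and 1.13, the first not with a pseudocount of 5 (0.72). All 11 measured members lay above 0 under both scalings and against either control. Against the matched control they ran from 0.51 to 1.32 with a median of 0.87, and between the controls their median was -0.35. Their summed level was 44.2 FPKM in the matched control, 31.5 in the later control, 94.0 in DTA and 95.6 in late DTA. The 42 other histone genes of the cluster had a median of 0.21 and no call. Histone H4 genes code for the same protein with near-identical sequence, so the split of fragments among them is uncertain and the sum is the safer value. This group was picked out after its values were seen. Of 23 measured cell cycle genes 13 lay above 0 and 10 below, with a median of 0.02, and only 3 reached the floor and could be called. Mcm6 was at 1.41 and 1.87 FPKM, Tk1 at 0.519 and 0.666 and Cdk2 at 0.863 and 0.895.

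**Figure D3:**
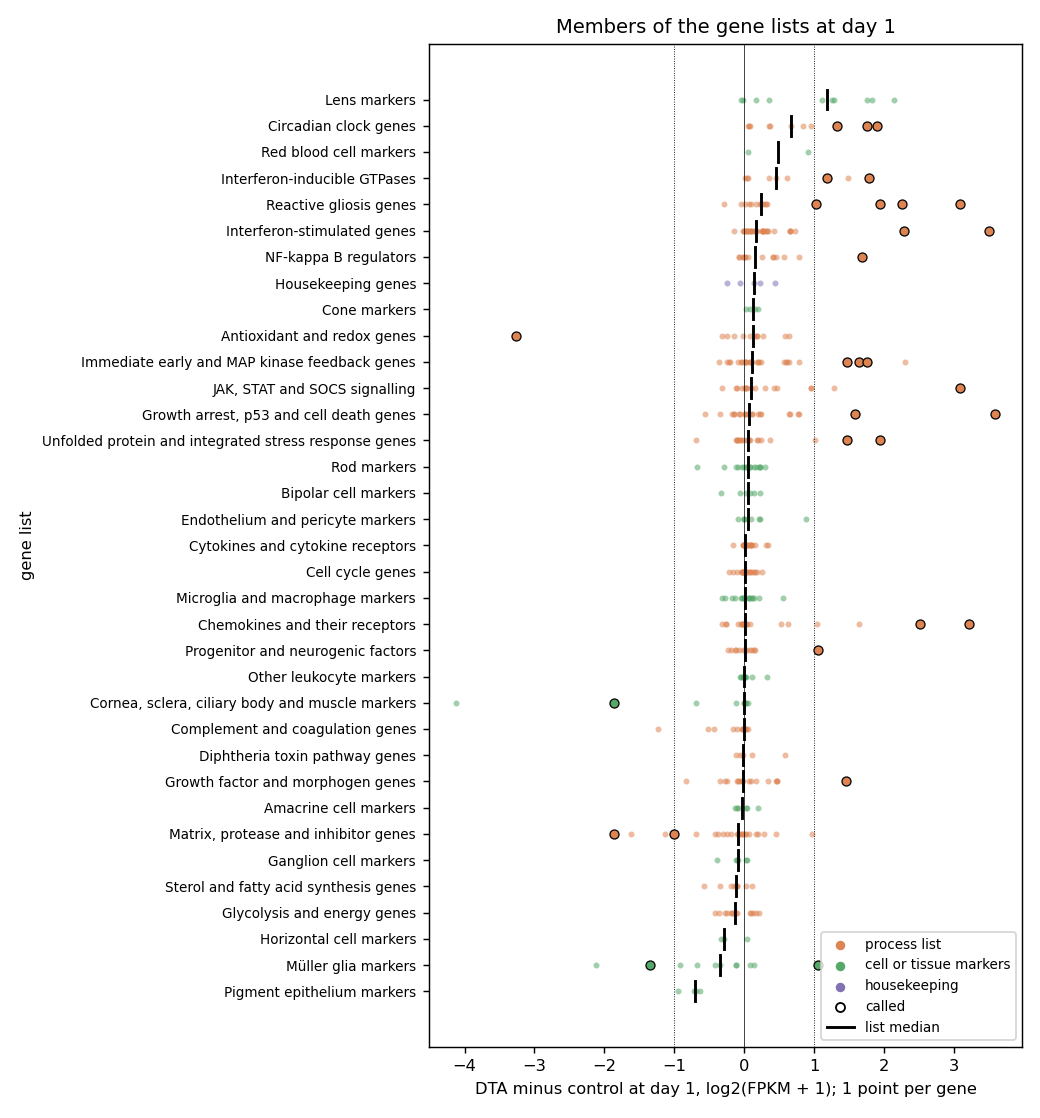
Every measured member of the 35 gene lists, 1 point per gene, with DTA minus control at day 1 on log2(FPKM + 1); ringed points were called, black bars are list medians and dotted lines mark differences of 1. Most lists centre on 0 with a few members far to the right, whereas the clock genes (median 0.66) and interferon-inducible GTPases (0.45) lie above 0 as whole lists, and the lens markers (1.19) lie higher still.

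Photoreceptor transcripts were close to control at this time. None of the 16 measured rod markers was called, 10 lay above 0 and 6 below (8 and 8 after either scaling), and the median was 0.06, or -0.0093 after scaling to the sum without the 50 most abundant genes. Their summed level was 8593 FPKM in the matched control, 8424 in DTA, 8934 in the later control and 4886 in late DTA. Within the list the members were not alike. Rp1, of the outer segment axoneme, was at 266 and 312 FPKM, and the kinase regulator Rcvrn, recoverin, at 925 and 904. Pdc, phosducin, was at 2003 FPKM in the matched control, 1635 in DTA and 1221 in the later control, so the controls differed more than the day 1 groups. Reep6, which serves vesicle trafficking in rods, stood at 473 FPKM in the matched control, 549 in the later control and 296 in DTA (-0.67), and was below both controls. The 4 cone markers had no call and a median of 0.12; all lay above 0, but 3 after either scaling and 2 against the later control.

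Müller glia markers did not move together. Sox9, a transcription factor of these cells (chromosome 11, 112643524 to 112649071), stood at 5.53 FPKM in the matched control, 4.50 in the later control and 12.5 in DTA, a 2.27-fold ratio, a call lost at a pseudocount of 5 (0.74) and after scaling to the sum without the 50 most abundant genes (0.99). It was also the 1 called of 13 progenitor and neurogenic factors (median 0.0056), with the retinal transcription factor Six6 at 16.4 and 14.2 FPKM. Glul, glutamine synthetase, stood at 1044, 888 and 550.0 FPKM (-0.92), below both controls and just short of the size of 1. Kcnj10, the potassium channel Kir4.1, was at 20.3 FPKM in the matched control and 12.4 in DTA (-0.67), and Dbi at 96.7, 87.4 and 107 (0.14). Of 11 measured markers 3 lay above 0 and 8 below, with 1 called higher and 1 lower. The list median was -0.34 against the matched control and 0.05 against the later control, so its sign depended on the control. Gja1, connexin 43, was at 8.79 FPKM in the matched control, 0.976 in the later control and 1.24 in DTA, and it is also made outside the retina in the eye.

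Markers of inner retinal neurons had medians near or below 0 and no call, although 2 of the 6 amacrine and 2 of the 3 horizontal cell markers alone reached the floor. Medians were 0.05 for 6 bipolar, -0.03 for 6 amacrine, -0.28 for 3 horizontal and -0.10 for 6 ganglion cell markers. Isl1, a factor of bipolar and other inner retinal cells, differed by -0.33, with 32.9 FPKM in the matched control and 20.8 in the later one. Nefh, the heavy neurofilament of ganglion cells, was at 23.7, 31.1 and 17.9 (-0.39). Of 17 microglia and macrophage markers 9 lay above 0 and 8 below (median 0.01), with Cd68 at 0.982 and 1.92 FPKM (0.56), Fcer1g at 0.988 and 1.14 and Lyz2 at 1.09 and 1.08. Only 3 of these 17 reached the floor, so for the other 14 no call was possible. In late DTA, Cd68 stood at 13.6 FPKM and Fcer1g at 12.7. The 13 other leukocyte markers summed to 0.662 FPKM in the matched control and 1.02 in DTA, with a median of 0, and none of the 13 reached the floor. Of 8 markers of endothelium and pericytes 1 reached the floor and was not called (list median 0.05): Rgs5 of pericytes, at 3.06, 8.04 and 6.45 FPKM. Of 15 complement and coagulation genes (median -0.0072) 1 reached the floor, Vtn, vitronectin, and it differed by -0.03.

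**Figure D4:**
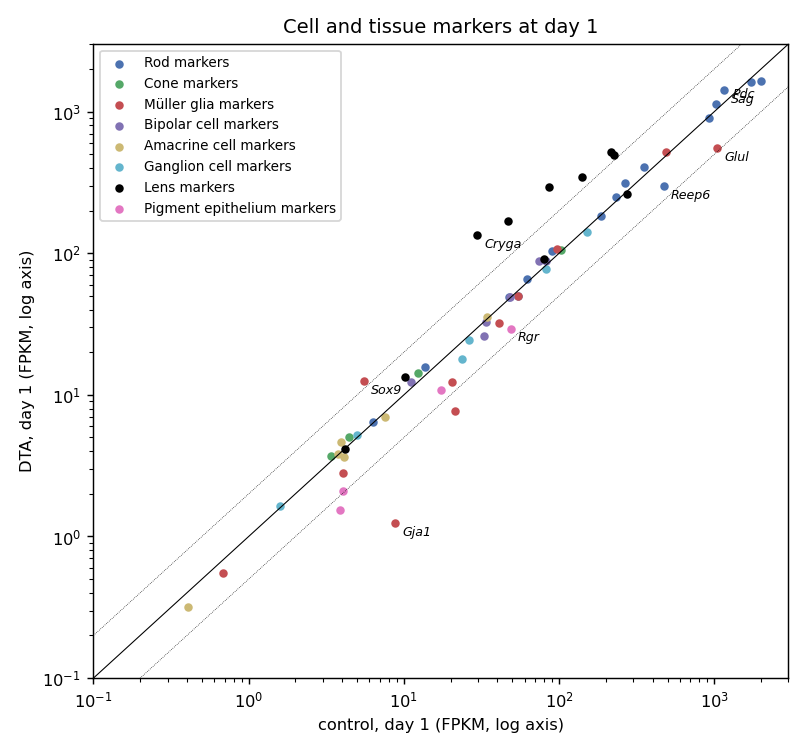
FPKM of marker genes in the matched control (horizontal) and DTA (vertical), both axes logarithmic, 1 point per gene and colours by list; the solid line marks equality and the dotted lines 2-fold ratios. Rod, cone and neuronal markers lie along the line, with Reep6 and Glul below it; gamma crystallins of the lens lie above the upper dotted line and Gja1 far below the lower one.

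Few genes were lower, and most of those differ as much between the controls. Gpx3, a secreted glutathione peroxidase (chromosome 11, 54716355 to 54723889), stood at 39.0 FPKM in the matched control, 3.60 in the later control and 3.17 in DTA. Fmod, the matrix proteoglycan fibromodulin (chromosome 1, 135934092 to 135944854), stood at 8.66, 2.22 and 1.66 FPKM, Sned1, a matrix glycoprotein, at 5.13, 1.81 and 1.64, and Col9a1, a collagen of the vitreous and cartilage, at 8.85, 4.24 and 3.92. Rangrf, a cofactor of the GTPase Ran, stood at 11.8, 0.149 and 0.0368 FPKM, and it overlaps Slc25a35 on the other strand, so its value is uncertain. For each of these the matched control is the high library and the other control sits beside DTA, and in 6 of the 9 lower genes the later control lay within 0.5 of DTA. Optc, opticin of the vitreous and ciliary body, showed the same at 33.5, 0.795 and 0.974 FPKM, as did Mfap4 (6.99, 0.0974 and 0.180), Crhbp (12.1, 1.78 and 2.18) and Col18a1 (13.4, 3.39 and 3.71). These 4 and Gja1 were not called, since their difference between the controls was the larger one. The 10 markers of cornea, sclera, ciliary body and muscle summed to 59.8 FPKM in the matched control, 17.6 in the later control and 13.5 in DTA. Only Fmod of these 10 was called, Optc was not, and the list median was -0.00013. The part of tissue other than retina in the lower genes was not tested.

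**Figure D5:**
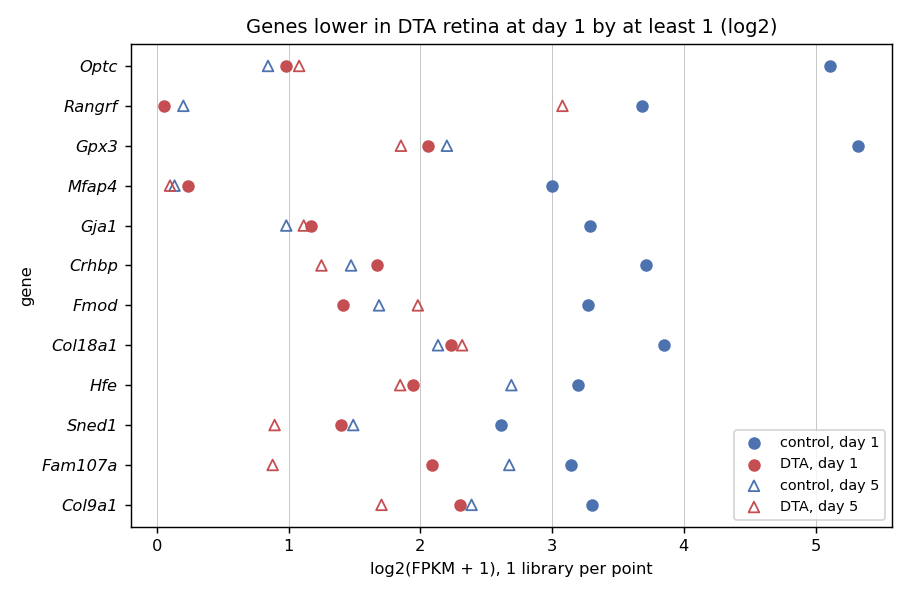
Named genes at least 1 lower in DTA at day 1, called or not, with log2(FPKM + 1) on the horizontal axis and 1 point per library (circles day 1, triangles day 5; blue control, red DTA); 1 called gene that is not reported and 1 gene model are not drawn. The matched control point stands alone on the right for most genes. In Hfe and Fam107a the later control lies further to the right of DTA than in the other called genes drawn. In Rangrf the late DTA library is near the matched control.

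Hfe and Fam107a lay further below the later control than the other called lower genes with proper names. The call rule puts all of these below both controls, and for Hfe and Fam107a the gap to the later control was the smaller one. Hfe, the iron regulator of hemochromatosis (chromosome 13, 23795710 to 23802680), stood at 8.17 FPKM in the matched control, 5.46 in the later control and 2.84 in DTA, differences of -1.25 and -0.75. Fam107a, an actin-associated protein of astrocytes and neurons (chromosome 14, 9128792 to 9142290), stood at 7.84, 5.39 and 3.25 FPKM, differences of -1.06 and -0.59, and at 0.839 in late DTA. The 1 gene at least 1 lower against both controls was a gene model, Gm5512, at 5.71, 8.34 and 0.869 FPKM, and at 9.25 in late DTA. Calls of Hfe, Fam107a, Sned1 and Col9a1 ended with a pseudocount of 5, and these and Fmod at a floor of 10 FPKM.

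The sterol and glycolysis lists lay slightly below the matched control, in the median by less than the later control did. Of 9 sterol and fatty acid synthesis genes 7 lay below 0, with no call and a median of -0.115. Their median was -0.128 for the later control minus the matched one and -0.055 for DTA against the later control. Idi1, an early enzyme of isoprenoid synthesis, was at 21.7 FPKM in the matched control, 14.8 in the later control and 14.2 in DTA. Of 14 glycolysis and energy genes 9 lay below 0, with no call and a median of -0.136. Here the median was -0.152 between the controls and -0.086 for DTA against the later control. Aldoc, the glial aldolase, was at 268 and 209 FPKM (-0.36), and Pfkfb2, which sets the level of a glycolytic activator, at 99.7 and 74.7 (-0.41) and at 30.0 in late DTA. Gpx3 was the 1 called of 12 antioxidant genes (median 0.12), where Txnrd1, thioredoxin reductase, differed by 0.58. Fmod and Col9a1 were the 2 called of 24 matrix and protease genes (8 above 0, 16 below, median -0.09). Against the later control 15 lay above 0 and 9 below, with a median of 0.03. Ctgf, a matrix-associated growth factor, lay the other way at 9.33, 7.24 and 19.3 FPKM (0.97). The 5 housekeeping genes had a median of 0.14, with Ppia at 356 and 339.5 FPKM.

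Lens and pigment epithelium transcripts differed among all libraries. The 10 lens markers summed to 1114 FPKM in the matched control, 2325 in DTA, 111 in the later control and 4.92 in late DTA. Their median was 1.19 at day 1 and -3.36 between the controls, and none was called, the gamma crystallins because they differed more between the controls. The difference at day 1 lay in the gamma crystallins, with Cryga at 29.7 and 134 FPKM and Cryge at 85.8 and 292, while Cryba1, a beta crystallin, was at 273 and 264 and Mip, the lens water channel, at 4.18 and 4.14. Gamma crystallin genes are near copies in one cluster, so the split among them is uncertain. The 4 pigment epithelium markers all lay below 0 (median -0.70), but 3 of the 4 stood above the later control (median 0.84), with Rgr at 48.7, 10.1 and 29.3 FPKM in the matched control, the later control and DTA. For the 2 red blood cell markers the median was 0.48. Whether lens or pigment epithelium RNA bears on any called gene was not tested.

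The size of 1 is a threshold within a run of values. Between 0.7 and 1 lay 30 further genes on the higher side and 5 on the lower. Just inside it stood Fzd7 (1.00, from 2.01 to 5.05 FPKM) and just outside Ifrd1, a transcriptional coregulator, at 21.5 FPKM in the matched control, 19.1 in the later control and 44.0 in DTA, and at 82.4 in late DTA. Pcdh15, a cadherin of photoreceptors and hair cells, was at 20.1, 20.9 and 38.3 FPKM (0.90). Below the floor of 5 FPKM 11 genes were at least 1 higher, among them Ntsr2, a neurotensin receptor, at 0.0543, 0.0569 and 4.22 FPKM (2.31), and Arid5a, an RNA-binding protein that stabilises inflammatory messages, at 1.02, 1.48 and 4.97 (1.56). Genes named in the text that belong neither to the 20 largest differences nor to a list were singled out after their values were seen.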

How the data were processed

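RNA was measured in 4 whole-retina libraries, 1 per group, from total RNA with an Illumina mRNA kit, per the labels' protocols. The authors deposited FPKM per gene with lower and upper bounds and a status, per the file headers. Cufflinks 2.1.1, CASAVA 1.8.2, bcl2fastq 1.8.4 and the build mm9 are named, without roles, per the submitters' processing notes. An aligner or annotation is not named there. FPKM is a share of the library, so abundant transcripts move all others. The day 1 DTA file holds 5799 symbols, and its FPKM were taken as normalised over its whole library. Lines of status FAIL (25, 10, 7 and 13 in matched control, DTA, later control and late DTA) or HIDATA (1, 0, 1 and 0) were missing. FPKM was summed over the loci of a symbol and compared as log2(FPKM + 1), with python 3.11.15, pandas 2.3.3 and numpy 2.4.6. The files hold no counts, and depth was estimated from the value of 1 fragment, taken as the commonest low FPKM times length. Shared FPKM summed to 100232, 101093, 93502 and 101950.

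The call rule needed a difference of 1, a floor of 5 FPKM and a larger difference than between the controls, and was checked on simulated data. The simulated noise came from the authors' intervals alone. The check therefore cannot speak to calls that arise from differences between mice, days or dissections. Named were the 20 largest called differences up and up to 15 down, called list members, up to 6 further members per list, the 10 most abundant control genes and a few by name; a few genes meeting this rule are not reported here. The members, the 35 lists (448 of 465 genes in the file) and the rules were chosen with earlier results of these data known. No test was possible with 1 library per group.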

Additional observations from a re-analysis of the deposited data

Results flagged for a closer look

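Both results here were drawn out because day 1 and day 5 lie in opposite directions, a difference between the days that was not tested. Fmod, fibromodulin, differed by -1.86 between DTA and control at day 1 and by 0.29 at day 5. Rangrf differed by -3.63 at day 1 and by 2.88 at day 5, with 11.8 FPKM in the matched control, 0.0368 in DTA, 0.149 in the later control and 7.45 in late DTA. The high libraries for Rangrf were thus 1 control and 1 DTA library.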

How the results depend on the processing

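No replicate could be left out and no paired analysis was possible because each group is 1 library. The main counts were 54 genes higher and 16 lower (34 and 9 without small RNA genes). A pseudocount of 5 gave 35 and 11 (17 and 4). A floor of 10 FPKM gave 34 and 10 (22 and 3). With no requirement on the controls there were 70 and 34 (42 and 14). The later control as reference gave 85 and 10 (65 and 2). When the authors' intervals must not overlap, 37 were higher and 10 lower (34 and 9), so the calls lost were all of small RNA genes. An alternative chosen after seeing the data, a difference of at least 1 against each control, gave 45 and 5 (31 and 1). The other settings were a pseudocount of 0.1, no floor, both scalings, single-locus symbols and low data lines missing. Their counts stayed within 1.5 times, from 43 to 72 higher and 14 to 19 lower. The causes were not tested. No difference that was called changed sign under these alternatives, but this was fixed in advance and is no check of the calls. The call rule already puts DTA on the same side of both controls, and a pseudocount or floor cannot turn a sign. The 2 scalings moved the median of the genes at the floor by only -0.05 and -0.07, against called differences of 1 or more. List medians near 0 did change sign in places, as for bipolar markers (-0.016 after scaling to the sum without the 50 most abundant genes) and amacrine markers (0.17 against the later control). The later control as reference moved the median of the genes at the floor, small RNA genes left out, from 0.05 to 0.14. Of the 3 libraries in these comparisons the later control is the shallowest, at 35.5 M fragments, so low genes are least precise there.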
